A study of Mus musculus with 4 samples.

Results

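The amino acid catabolism enzymes described here are 10 genes, chosen by name and found by symbol among the 32285 genes counted: Tat, Sds, Hal, Uroc1, Gls2, Oat, Haao, Tdo2, Hpd and Gldc. All 10 passed the filter on low counts in every comparison below. They were measured by single-nucleus RNA sequencing, which counts transcripts as unique molecular identifiers (UMIs) in isolated nuclei, of non-tumor liver from male mice. Every mouse had received 25 mg/kg of diethylnitrosamine (DEN), a liver carcinogen, at 14 days of age and was 12 months old, so neither group was free of the carcinogen. The 4 libraries are called WT1 and WT2 (the 2 labelled Brca1-WT) and KO1 and KO2 (the 2 labelled Brca1-KO), where KO stands for the label. No source used here gives the strain, the deleted exons of Brca1, the cells that lack it or any Cre driver. The labels call the libraries biological replicates and do not describe the mice further, and they name no feeding state, fast or time of day for any library.

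The liver is the main site at which amino acids beyond the needs of protein synthesis are broken down, their nitrogen going to urea and their carbon skeletons to glucose or ketone bodies. Many of these enzymes are known in rodents to be raised by glucagon, glucocorticoids, fasting or a high-protein diet. Liver lobules are also zoned: hepatocytes near the portal vein, which receive blood from the gut, carry most gluconeogenesis and ureagenesis, while those around the central vein take up ammonia into glutamine. Sds deaminates serine to pyruvate and Gldc is the decarboxylase of the glycine cleavage system. Hal and Uroc1 catalyse consecutive early steps of histidine breakdown, Gls2 is the liver-type glutaminase, and Oat is the aminotransferase that links ornithine to glutamate. Tat and Hpd act in succession on tyrosine. Tdo2 opens the ring of tryptophan at the start of the kynurenine pathway, and Haao acts further down that pathway.

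Hepatocyte-like nuclei numbered 13477 of the 23868 nuclei kept, with 2793 in WT1, 4020 in WT2, 2573 in KO1 and 4091 in KO2. Their summed depth ran from 29181315 to 38783041 UMIs per library. KO2 stood apart: 3 of the 8 hepatocyte-like clusters (numbers 7, 8 and 19) held 95.5% of its hepatocyte-like nuclei, against 1.93%, 2.44% and 0.0777% in WT1, WT2 and KO1. The 9 hepatocyte markers summed to 15060, 16491 and 8649 CPM (the unit defined below) in those 3 clusters and to 13504 to 22168 in the other 5. The 12 remaining clusters had 2276 to 14817; the highest was an unnamed cluster of 71 nuclei led by S100a9 with a median of 861 UMIs, so the marker level alone does not set the class apart. Pairs of libraries shared 9 to 20 cell barcodes. A level below is in CPM, a gene's UMIs in a library's hepatocyte-like nuclei scaled to a total of 1000000 over all genes. Droplet data carry free RNA, so the enzymes were also read in nuclei of other classes, which were shallower (median 1086 to 2226 UMIs against 5950 to 9513). As a percentage of the hepatocyte-like mean, the 10 genes stood at 12.6 to 33.4% in endothelial-like nuclei (median 15%), at 12.6 to 49.5% in stellate-like (13.6%), at 14.9 to 52.6% in Kupffer-like (17.9%) and at 37.4 to 111% in B-like nuclei (45.3%). Oat was the highest of the 10 in each of these classes, and in B-like nuclei Oat (111%) and Haao (108%) were above their hepatocyte-like means. A level at or below those of these classes in the same library was read as background. Whether these classes make some of the transcripts themselves, Oat and Haao above all, was not tested. Background thus means only the level seen in those classes.

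To place the enzymes along the lobule, the hepatocyte-like nuclei of each library were ordered by a score of 7 portal and 13 central marker genes, none of them one of the 10 enzymes, and divided into 5 bins of equal numbers of nuclei. The outermost are called the central and the portal bin and those between them bins 2, 3 and 4. The sums of the portal and the central bin were then compared within libraries. Of the 10 enzymes, 8 passed: Sds, Hal, Gldc, Gls2, Uroc1 and Tdo2 were higher in the portal bin, and Oat and Hpd were higher in the central bin. Over all 11808 genes tested, 25.3% passed, 13% as higher and 12.3% as lower in the portal bin, and 35.6% had an unadjusted p below 0.05 (edgeR's quasi-likelihood test with the library as a block, Benjamini-Hochberg adjusted p below 0.05). The median log2 difference of portal over central was 1.5 over the 10 enzymes and 0.0013 over all genes. Between 13.3 and 16.8% of a library's nuclei lay within 0.1 score units of either cut, so the bins are ranges of a continuous order.

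**Figure D1:**
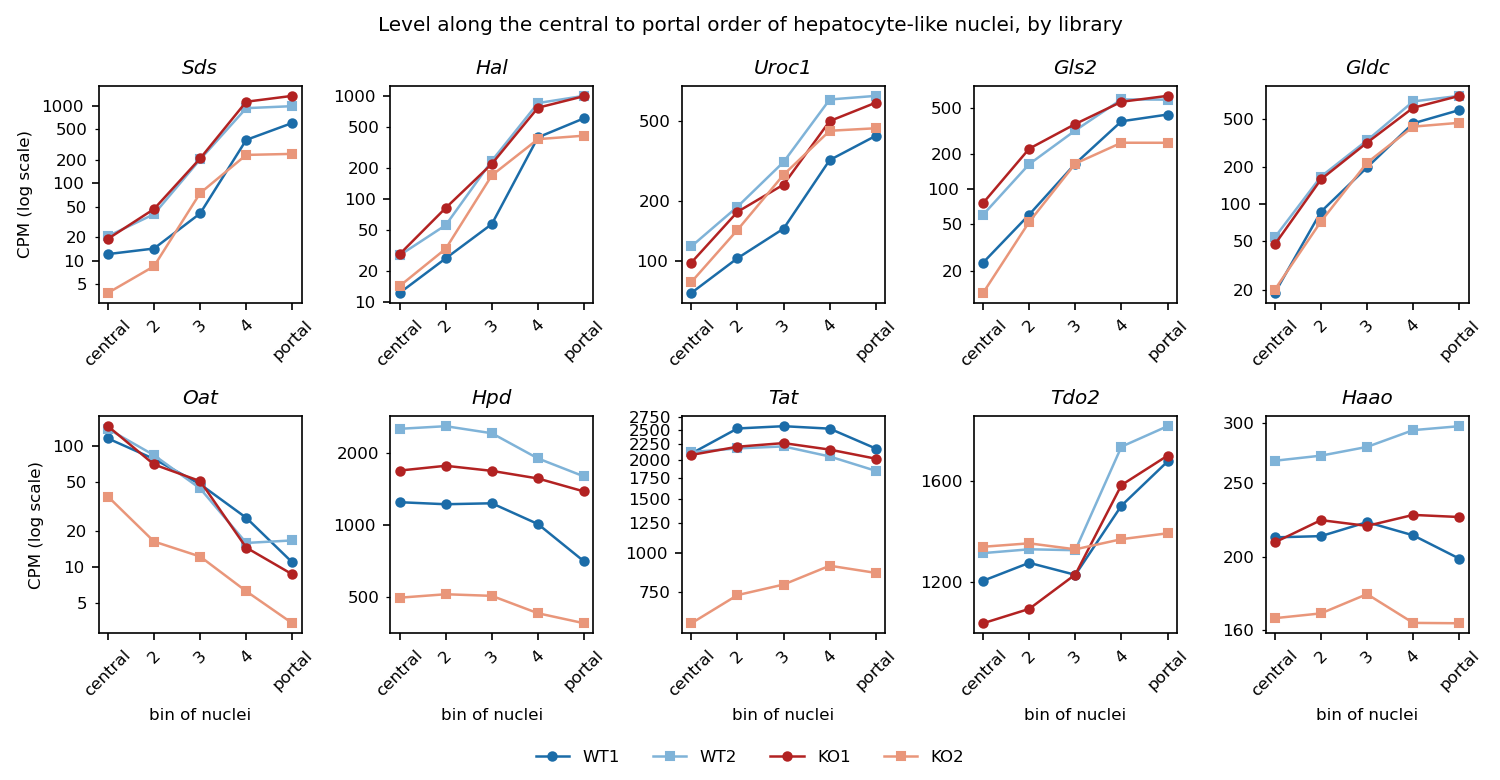
Level of each enzyme (CPM, log scale) in the 5 bins of hepatocyte-like nuclei from central to portal; each line is 1 library. Sds, Hal, Uroc1, Gls2 and Gldc were higher in the portal than the central bin in all 4 libraries and Oat was lower in all 4, while Tat and Haao did not pass the test.

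Sds had the largest fitted difference between the bins. In the central bin its level was 12.1 CPM in WT1, 20.7 in WT2, 19.1 in KO1 and 3.81 in KO2. In the portal bin it was 607, 1002, 1362 and 241 in the same order of libraries, which the other enzymes below also follow. The portal level was 48.4 to 71.3 times the central level in the 4 libraries (log2 difference 5.83, SE 0.10, edgeR adjusted p 5.94e-11). In CPM, most of the climb lay between bins 3 and 4 in each library: Sds went from 40.8 to 366 in WT1, from 204 to 944 in WT2, from 210.1 to 1143 in KO1 and from 74.8 to 234 in KO2. The central levels of Sds were below those of endothelial-like nuclei (25.8, 44.3, 87.0 and 39.3 CPM), and of the Kupffer-, stellate- and B-like ones, in all 4 libraries. They are thus at background, and the size of the fold, and its rank among the enzymes, rest on it. KO2 was the lowest of the 4 in both outer bins, with a portal over central ratio inside the range of the others.

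The 2 histidine enzymes shared a direction. Hal had central levels of 12.1, 28.1, 28.8 and 14.1 CPM and portal levels of 603, 996, 989 and 409, a log2 difference of 5.15 (SE 0.11, edgeR adjusted p 3.95e-09). Uroc1 had central levels of 68.7, 118, 97.6 and 78.0 and portal levels of 424, 672, 621 and 462, a log2 difference of 2.58 (SE 0.06, edgeR adjusted p 1.82e-10). The portal level of Uroc1 was 5.71 to 6.36 times the central one, and that of Hal was 28.9 to 49.8 times, in the 4 libraries. The central levels of Hal were, like those of Sds, below all 4 of the other classes in every library, so its fold also rests on background; those of Uroc1 were above the endothelial-, Kupffer- and stellate-like levels in all 4 libraries and below the B-like level in 3.

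Promoters of 8 of the 10 enzymes had an entry in the RefSeq promoter table (build GRCm38.p6, 250 bases before to 50 after the start of the gene); Sds and Gls2 did not. Those of Hal and Uroc1, whose transcripts were portal, and Oat, whose transcript was central, are shown because these genes had opposite profiles; they lie at chr10:93488518-93488817 (plus strand), chr6:90333039-90333338 (plus strand) and chr7:132576349-132576648 (minus strand). Capitals mark matches on either strand to CTTTGA, a core of the TCF/LEF motif read by the Wnt pathway that is known to pattern the lobule, or to TGACG, the core of the cyclic AMP response element. The glucocorticoid receptor core AGAACA was searched in the same way, and none of the 3 motifs overlapped another in these 3 windows.
Hal: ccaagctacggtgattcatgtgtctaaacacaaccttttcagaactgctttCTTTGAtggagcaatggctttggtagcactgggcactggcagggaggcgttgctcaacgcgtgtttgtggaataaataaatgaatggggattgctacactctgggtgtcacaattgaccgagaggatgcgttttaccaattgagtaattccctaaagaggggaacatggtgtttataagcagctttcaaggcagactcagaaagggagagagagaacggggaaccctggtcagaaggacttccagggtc
Uroc1: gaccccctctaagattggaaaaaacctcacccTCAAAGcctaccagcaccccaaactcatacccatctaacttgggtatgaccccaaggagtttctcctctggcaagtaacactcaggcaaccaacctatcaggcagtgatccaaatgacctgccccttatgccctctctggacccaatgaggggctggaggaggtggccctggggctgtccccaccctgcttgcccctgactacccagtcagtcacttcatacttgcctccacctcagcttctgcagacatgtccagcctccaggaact
Oat: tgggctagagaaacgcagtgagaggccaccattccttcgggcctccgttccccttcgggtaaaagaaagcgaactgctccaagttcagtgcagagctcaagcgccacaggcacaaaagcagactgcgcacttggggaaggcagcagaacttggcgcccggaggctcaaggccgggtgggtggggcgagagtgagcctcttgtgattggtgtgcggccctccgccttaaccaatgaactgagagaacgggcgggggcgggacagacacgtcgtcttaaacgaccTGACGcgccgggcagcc
CTTTGA was found in 3 of the 8 promoters (Hal, Uroc1 and Haao) and in 16.0% of all 32851 promoters of the table. TGACG was found only in Oat among the 8 and in 20.8% of all promoters. AGAACA was found only in Haao among the 8 and in 19.0% of all. A match describes the letters in this window and says nothing of binding.

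Gldc and Gls2 were also portal in every library. Gldc rose from 18.8, 53.5, 46.8 and 20.01 CPM in the central bin to 586, 766, 765 and 461 in the portal bin (log2 difference 4.28, SE 0.22, edgeR adjusted p 0.000253). Gls2 went from 23.5, 60.5, 76.2 and 12.9 to 437, 586, 632 and 250.2 (log2 difference 3.62, SE 0.29, edgeR adjusted p 0.00294). Central levels of Gldc lay below the Kupffer- and B-like ones in all 4 libraries, the endothelial-like in 3 and the stellate-like in 2. Those of Gls2 lay below the B-like ones in all 4, the Kupffer-like in 3 and the endothelial- and stellate-like in 2. The size of these 2 folds thus also rests in part on background. Both genes climbed at each step up to bin 4: Gldc in WT2 had 168 CPM in bin 2, 331 in bin 3 and 690 in bin 4. Gls2 overlaps Spryd4 on the opposite strand in GENCODE vM21, and Sds overlaps Gm15690 and Plbd2 there; whether counting used strand is not given, so their counts are uncertain to that extent.

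Oat ran the other way. Its level fell from 115, 138, 145 and 38.2 CPM in the central bin to 10.9, 16.6, 8.70 and 3.43 in the portal bin, so that the central level was 8.32 to 16.7 times the portal one. The log2 difference of portal over central was -3.48 (SE 0.14, edgeR adjusted p 4.47e-07). The portal levels were below those of Kupffer-, stellate- and B-like nuclei in all 4 libraries, so this fold too rests on background. Oat overlaps Fgfr2 on the same strand in GENCODE vM21, so reads of the shared stretch cannot be assigned to either. Hpd was central with a small difference. It had 1244, 2519, 1686 and 497 in the central bin and 704, 1593, 1379 and 389 in the portal bin (log2 difference -0.54, SE 0.09, edgeR adjusted p 0.00126). Hpd overlaps Psmd9 on the opposite strand.

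The remaining enzymes of tyrosine and tryptophan breakdown had a small difference along the lobule (Tdo2) or none that passed (Tat and Haao). Tat did not pass: portal over central was 1.04, 0.870, 0.972 and 1.45 in the 4 libraries, higher in 2 and lower in 2 (log2 difference 0.08, SE 0.11, edgeR adjusted p 0.703). Haao did not pass either, with ratios of 0.938 to 1.11 (log2 difference 0.03, SE 0.06, edgeR adjusted p 0.800). Tdo2 passed as portal by a small margin (log2 difference 0.42, SE 0.10, edgeR adjusted p 0.0122), and lost the call without any of 3 libraries, at adjusted p 0.0614 without WT1, 0.0624 without WT2 and 0.0562 without KO1. Its portal over central ratio was 1.40, 1.43 and 1.61 in those libraries and 1.04 in KO2, where Tdo2 had 1327 CPM in the central and 1379 in the portal bin.

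Markers of other cells also differed between the outer bins. The summed level of the 8 stellate and mesenchymal markers was 20.1 CPM in the central and 95.1 in the portal bin of WT1, 21.5 and 47.6 in WT2, 13.7 and 14.6 in KO1, and 24.6 and 29.0 in KO2. The 8 cholangiocyte markers were higher in the portal bin of every library, with 62.2 CPM in the central and 89.9 in the portal bin of WT1, 17.6 and 33.3 in WT2, 19.5 and 32.8 in KO1, and 50.3 and 73.5 in KO2; Krt19 was at 0 in all 4. The 7 T cell markers summed to 7.57 to 66.9 in the central and 3.12 to 8.80 in the portal bins. The 66.9 belonged to KO2, where Themis made up 62.7 of it and Cd3e, Cd3d and Bcl11b were at 0. Their part in the zonation was not tested.

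A wider list of 60 other amino acid catabolism genes held 18 that were higher and 8 that were lower in the portal bin, with a median log2 difference of 0.01. That is 30% and 13.3% of the list, beside 13% and 12.3% of all genes, so the share of central genes was close to that of all genes. The largest portal differences were those of Sdsl, a serine dehydratase-like gene next to Sds (log2 5.06), Aspg (3.12), Amdhd1 (2.81) and Ftcd (2.78), the last 2 acting after Hal and Uroc1 on histidine carbon. All 4 named histidine genes were therefore portal by more than 2 on the log2 scale. The largest central differences were those of Csad, which leads to taurine (-2.57), Prodh, a proline oxidase (-0.92), Agxt2 (-0.64) and Aldh4a1, which follows Prodh (-0.52).

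**Figure D2:**
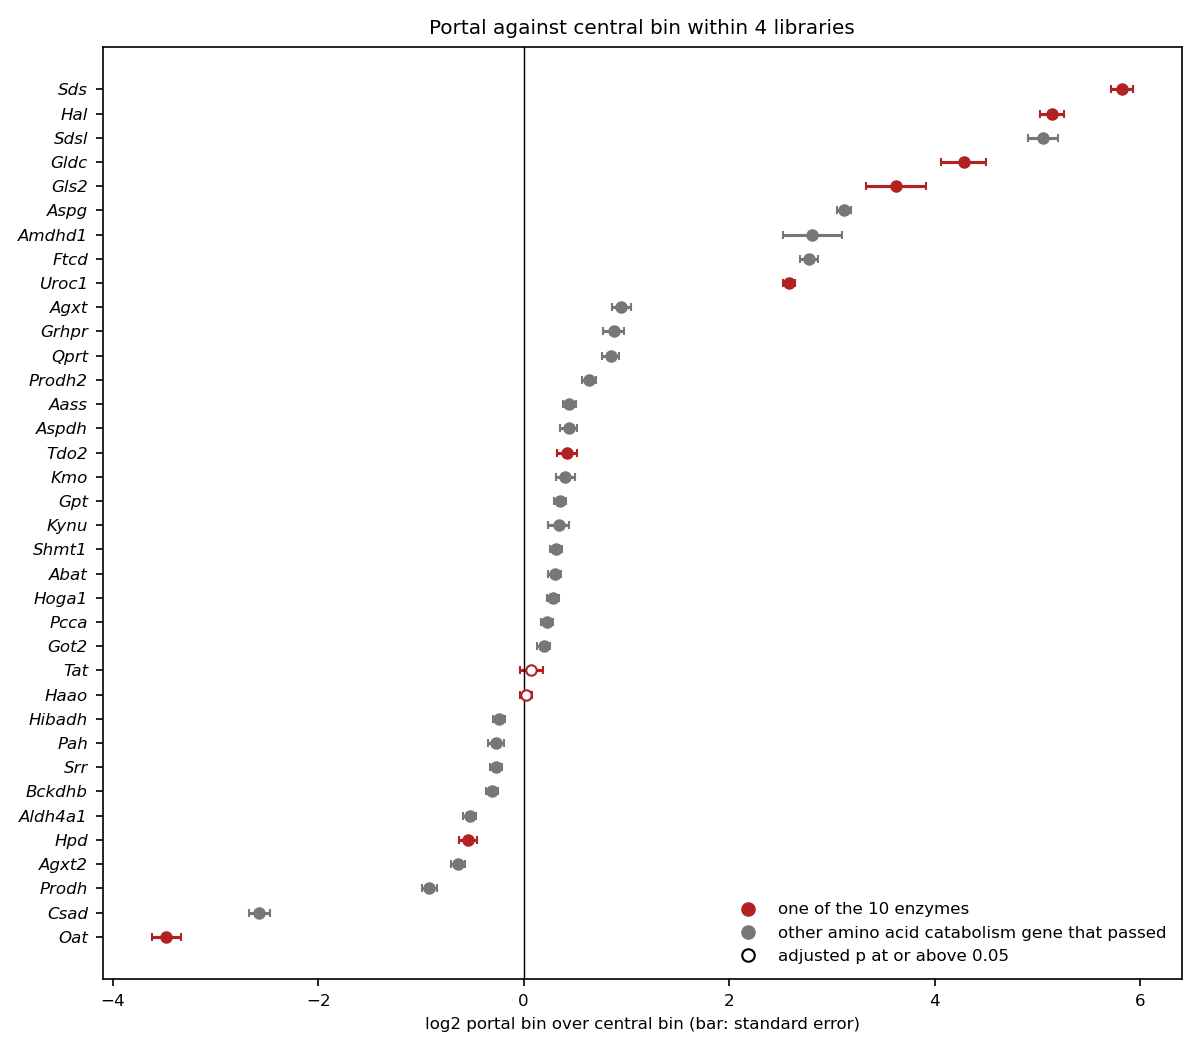
Log2 difference of the portal over the central bin with its standard error (edgeR, library as a block) for the 10 enzymes and for the genes of the wider list that passed; filled points passed and open points did not. Sds at 5.83 and Oat at -3.48 mark the ends of the range.

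The 20 sums of 4 libraries by 5 bins also show which enzymes varied together; these sums share libraries, so the correlations are descriptions. Sds, Hal, Uroc1, Gls2 and Gldc correlated with each other at Pearson r 0.913 to 0.986, and Oat with those 5 at -0.776 to -0.533. Tat, Haao and Hpd correlated with each other at 0.720 to 0.904. Of 6233 genes averaging at least 20 CPM, those with the most alike courses were Sdsl for Sds (r 0.989), Etnppl for Hal (0.981) and Uroc1 (0.985), AC135859.1 for Gls2 (0.993) and Sfxn1 for Gldc (0.987). For Oat it was Lhpp (0.962), which was itself one of the central score markers. For the enzymes with little zonation they were Serpina3k for Tat (0.983), Eef2 for Haao (0.975), Son for Hpd (0.972) and Cxadr for Tdo2 (0.897).

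The study's design sets Brca1-KO against Brca1-WT livers. Brca1 itself did not separate the groups in hepatocyte-like nuclei: its level was 13.4 CPM in WT1, 12.4 in WT2, 18.6 in KO1 and 5.78 in KO2 (log2 fold change -0.06, SE 0.53, edgeR adjusted p 0.9995). Reads from transcript ends or from parts outside a deletion would still be counted, so this level does not settle which libraries carry the deletion, and every direction below rests on the labels.

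None of the 10 enzymes passed between genotypes in hepatocyte-like nuclei, where 0% of 15113 genes passed edgeR's test (edgeR quasi-likelihood, Benjamini-Hochberg adjusted p below 0.05). At an unadjusted p below 0.05 the counts were 0 of 10 enzymes and 499 genes, or 3.3%, and DESeq2 passed 23 genes and none of the 10 enzymes. The median log2 fold change was -0.09 over the enzymes and -0.0060 over all genes. What the libraries did show was a spread in which KO2 was lowest for 8 of the 10 enzymes, against 40.3% of all genes. It lay below 0.5 times the lowest of the other 3 libraries for 3 of 10, namely Tat, Oat and Hpd, against 3.98% of all genes. These counts describe that 1 library and carry no test. The groups did not overlap for 1 enzyme of 10, against 31.3% of all genes. This was Tdo2, with KO1 and KO2 below WT1 and WT2, as in 19.7% of all genes; for 0 enzymes were both above, against 11.5%.

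**Figure D3:**
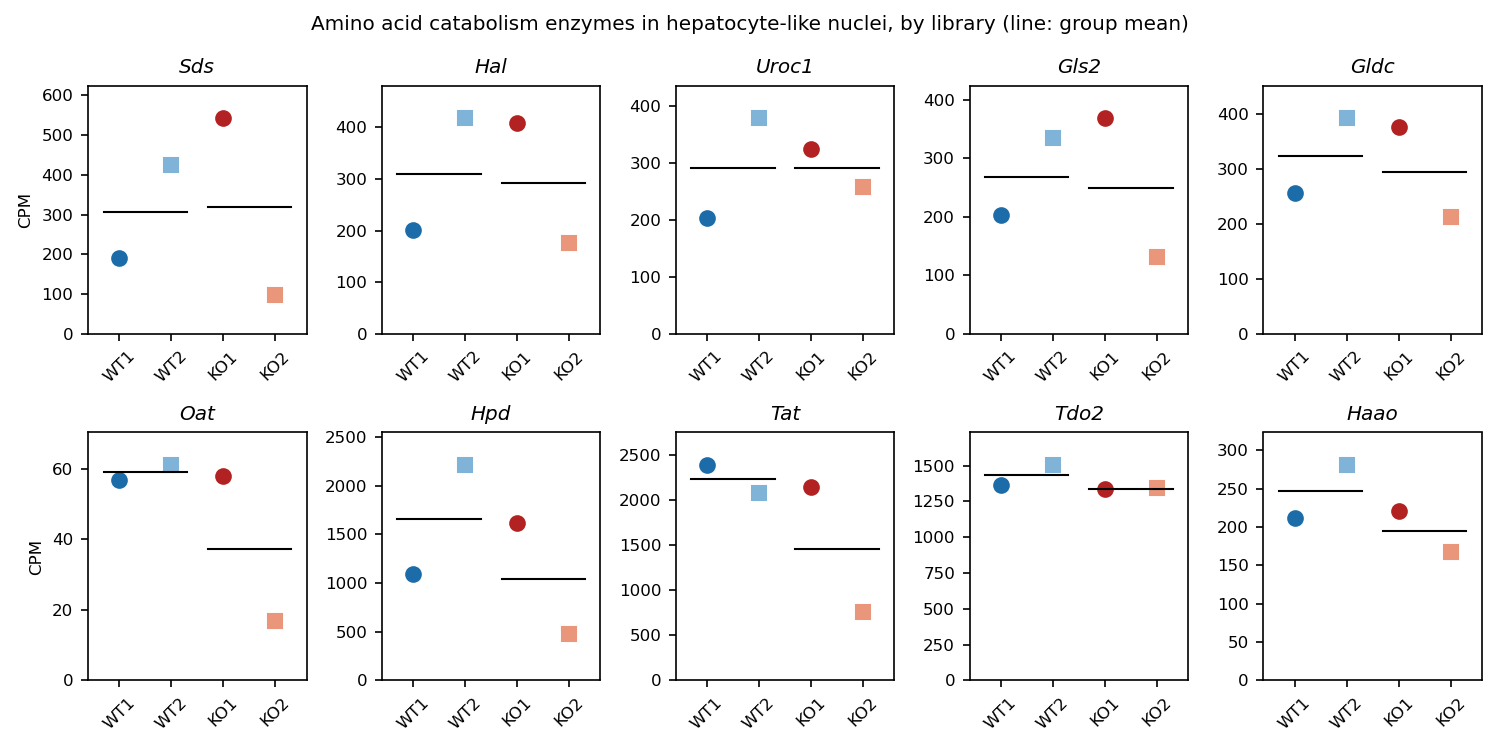
CPM of each enzyme in the hepatocyte-like nuclei of each library (WT and KO stand for Brca1-WT and the label Brca1-KO; black lines are group means; each axis starts at 0). KO2 is the lowest for every enzyme except Uroc1 and Tdo2.

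Both tyrosine enzymes differed more between the 2 libraries labelled Brca1-KO than between the group means. Tat had 2393 CPM in WT1, 2083 in WT2, 2147 in KO1 and 764 in KO2 (log2 fold change -0.59, SE 0.51, edgeR adjusted p 0.989). KO1 lay between the Brca1-WT libraries, so the groups overlapped. Hpd had 1096 CPM in WT1, 2213 in WT2, 1618 in KO1 and 472 in KO2 (log2 fold change -0.64, SE 0.66, edgeR adjusted p 0.989), again with KO1 inside the Brca1-WT range and KO2 below it. Without KO2 the log2 fold changes were -0.04 for Tat and -0.02 for Hpd. Without KO1 they were -1.45 (edgeR adjusted p 0.166) and -1.71 (edgeR adjusted p 0.332).

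Oat, in ornithine metabolism, had 56.8 CPM in WT1, 61.1 in WT2, 57.9 in KO1 and 16.8 in KO2 (log2 fold change -0.63, SE 0.55, edgeR adjusted p 0.989). WT1, WT2 and KO1 lay within a narrow band and KO2 below it. In KO2 this level was below those of Kupffer-like (19.9 CPM) and B-like nuclei (31.2, from 6 UMIs). It was close to that of stellate-like ones (16.3), while the 65 endothelial-like nuclei held 0 Oat UMIs. Taken over all hepatocyte-like nuclei, the KO2 level of Oat thus cannot be told apart from background. B-like levels were also above the hepatocyte-like ones in WT1 (57.9 CPM, from 16 UMIs), WT2 (62.5, from 10) and KO1 (62.6, from 9). Against that class Oat, taken over all hepatocyte-like nuclei, was at background in every library. In the central bin alone, Oat was above each of the other classes in every library, with 38.2 CPM in KO2. Endothelial-, Kupffer- and stellate-like levels were below the hepatocyte-like ones in WT1, WT2 and KO1. Leaving out KO1 gave -1.71 (edgeR adjusted p 0.0876), and leaving out KO2 gave -0.0084. Sds had 190 CPM in WT1, 425 in WT2, 542 in KO1 and 97.2 in KO2 (log2 fold change 0.08, SE 0.83, edgeR adjusted p 0.9995), so that the highest and the lowest library both carried the label Brca1-KO. Its log2 fold change was -1.56 without KO1 and 0.83 without KO2.

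The other portal enzymes shared the low value of WT1. Hal had 200.2 CPM in WT1, 417 in WT2, 408 in KO1 and 176 in KO2, and Uroc1 had 202 CPM in WT1, 378 in WT2, 324 in KO1 and 257 in KO2. Gls2 had 203 CPM in WT1, 335 in WT2, 368 in KO1 and 131 in KO2, and Gldc had 255 CPM in WT1, 392 in WT2, 376 in KO1 and 213 in KO2. In each of these 4 genes WT1 lay below WT2 and KO1, and the groups overlapped. Their log2 fold changes were -0.05 (SE 0.52) for Hal, 0.05 (SE 0.35) for Uroc1, -0.08 (SE 0.53) for Gls2 and -0.10 (SE 0.36) for Gldc. Each of the 4 turned in sign when some single library was left out.

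Tryptophan enzymes varied least. Tdo2 had 1363 CPM in WT1, 1505 in WT2, 1336 in KO1 and 1342 in KO2 (log2 fold change -0.05, SE 0.25, edgeR adjusted p 0.996). Haao had 212 CPM in WT1, 281 in WT2, 221 in KO1 and 168 in KO2 (log2 fold change -0.30, SE 0.24, edgeR adjusted p 0.989). For Tdo2 the gap between the groups was smaller than the distance between the Brca1-WT libraries, and for Haao the groups overlapped.

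Libraries also differed in how many nuclei fell at each end of the score. With cuts pooled over libraries, the central bin held 32.5% of nuclei in WT1, 21.3% in WT2, 12.8% in KO1 and 14.7% in KO2, and the portal bin 16.4%, 15.8%, 15.9% and 29.2%. With each pooled bin given equal weight, KO2 stood at 0.263 of the Brca1-WT mean for Sds, 0.294 for Hpd, 0.340 for Tat, 0.346 for Oat, 0.424 for Gls2 and 0.473 for Hal. For Gldc, Haao, Uroc1 and Tdo2 it stood at 0.564, 0.681, 0.788 and 0.910. KO1 stood at 0.891 to 1.58. The low levels of KO2 were thus also seen with these bins weighted alike. The score markers themselves differed in level between libraries. Each library was set against the mean of the other 3. The median log2 ratio of the central markers was 0.66 in WT1, 0.004 in WT2, -0.52 in KO1 and -0.08 in KO2. For the portal markers it was -0.41, -0.12, -0.27 and 0.43 in that order. Shares of nuclei in the pooled bins thus cannot be told apart from library-wide shifts of the markers.

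Some other measures of the hepatocyte-like sums differed between the labels. The 8 endothelial markers, each with a UMI in every library, summed to 43.2 to 54.2 CPM in WT1 and WT2 and to 17.4 to 29.6 in KO1 and KO2, and each of the 8 was lower in KO1 and KO2 than in either of the others. The 8 Kupffer cell and macrophage markers, also each with a UMI in every library, summed to 13.1 to 17.6 and 5.59 to 8.95. The 8 stellate and mesenchymal markers, of which Col1a1 was at 0 in every library, summed to 28.3 to 40.8 in WT1 and WT2 and to 13.5 to 27.5 in KO1 and KO2. Of these 8, 3 were lower in both KO1 and KO2 than in WT1 and WT2, as were 7 of the 8 Kupffer cell and macrophage markers. Over all genes this held for 19.7%. The sums of T cell, B cell and cholangiocyte markers overlapped between the labels. Those of monocyte and dendritic and of NK cell markers did not, at no more than 1.06 CPM. Mitochondrial transcripts, a sign of how clean the nuclei were, made up 1308 CPM in WT1, 1392 in WT2, 848 in KO1 and 891 in KO2. A cluster led by Gpc3 held 150 nuclei of WT1, 22 of WT2 and 0 of KO1 and KO2. The part of these in the enzyme levels was not tested, except that 0 enzymes passed without the Gpc3-led cluster too.

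In the wider list 0 of 60 genes passed between genotypes, with 21 log2 fold changes above 0 and 39 below and a median of -0.08; 49.2% of all genes were above 0. The 6 with the smallest unadjusted p were Agxt2 (-0.37), Gstz1 (-0.27), Dld (-0.23), Pcca (-0.37), Acmsd (1.16) and Amdhd1 (0.22), all at an edgeR adjusted p of 0.989. KO2 was lowest for 42 of the 60, beside 40.3% of all genes, and below 0.5 times the lowest other library for 5, beside 3.98%. The 5 were Agxt, Aass, Aadat, Aspdh and Got1, named after their values were seen. Got1, the cytosolic aspartate aminotransferase, had 451 CPM in WT1, 937 in WT2, 1379 in KO1 and 26.6 in KO2.

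Since the labels give no feeding state, genes known to rise with fasting or feeding were read library by library. Pck1, a rate-limiting enzyme of gluconeogenesis, had 2595 CPM in WT1, 3044 in WT2, 2233 in KO1 and 1626 in KO2. G6pc, which releases free glucose, had 1099 CPM in WT1, 424 in WT2, 408 in KO1 and 115 in KO2. Ppargc1a, a coactivator of gluconeogenic genes, had 188 CPM in WT1, 302 in WT2, 333 in KO1 and 110 in KO2. KO2 was lowest for all 3.

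Igfbp1, known to be held down by insulin, had 79.7 CPM in WT1, 53.7 in WT2, 53.9 in KO1 and 7.503 in KO2. Of the feeding-raised genes, Srebf1 had 17.2 CPM in WT1, 17.2 in WT2, 11.1 in KO1 and 12.7 in KO2, and Pklr had 38.2 CPM in WT1, 15.9 in WT2, 15.1 in KO1 and 31.1 in KO2. Neither gene singled out KO2, whereas Scd1, a fatty acid desaturase named after its values were seen, had 12.4 CPM in WT1, 16.9 in WT2, 15.7 in KO1 and 39.7 in KO2. Scd1 does not stand for the list: KO2 was above the mean of the other 3 libraries for 4 of the 9 feeding-raised genes.

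Over the 12 fasting-raised genes KO2 was lowest for 11 and below 0.5 times the lowest other library for 5, while KO1 and KO2 were each below WT1 and WT2 for 7. The shares over all 15113 genes were 40.3%, 3.98% and 19.7% in that order. The median log2 ratio of each library to the mean of the other 3 was 0.53 in WT1, 0.20 in WT2, -0.22 in KO1 and -1.0001 in KO2 for the fasting-raised genes. For the 10 enzymes it was -0.37, 0.50, 0.36 and -1.08 in that order, and for the 9 feeding-raised genes 0.50, -0.25, -0.46 and -0.08. By this median the enzymes and the fasting-raised genes were thus both lowest in KO2. WT1, highest by it for both fasting- and feeding-raised genes, was below the mean of the others for 8 of the 10 enzymes. The rank of WT1 depends on the measure: the fasting-raised genes summed to 8921 CPM in WT1 and 9462 in WT2. Whether the mouse of any library had been fasted cannot be told from these values, and the part of feeding in the enzyme levels was not tested.

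**Figure D4:**
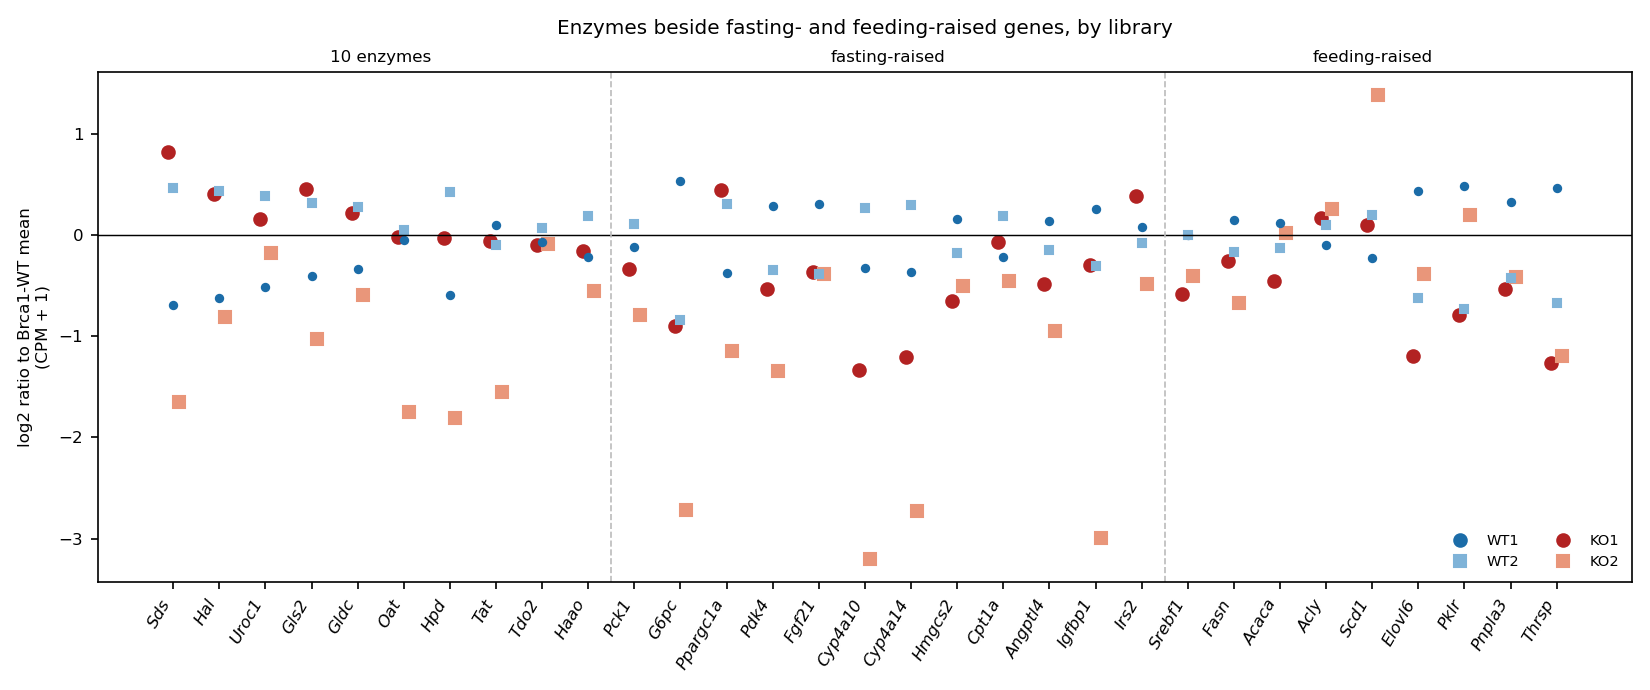
Log2 ratio of each library to the Brca1-WT mean (CPM plus a pseudocount of 1) for the 10 enzymes, 12 fasting-raised and 9 feeding-raised genes in hepatocyte-like nuclei. KO2 (pale red squares) lies lowest for 8 enzymes and 11 fasting-raised genes.

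Whether zonation itself differed between genotypes was tested as an interaction of zone and genotype. None of the 10 enzymes passed, and 0% of 12522 genes did; at an unadjusted p below 0.05 there were 3 enzymes and 494 genes, or 3.95%. The 3 were Hpd (difference of log2 portal over central, Brca1-KO minus Brca1-WT, 0.42, SE 0.13), Sds (0.48, SE 0.16) and Oat (-0.63, SE 0.23), each at an edgeR adjusted p of 0.99998. Hpd had portal over central ratios of 0.566 in WT1, 0.633 in WT2, 0.818 in KO1 and 0.782 in KO2. The other 7 ranged from -0.37 for Hal to 0.33 for Tat. In simulated counts with a known interaction the test found 38 of 100 genes at a log2 difference of 1 and 100 of 100 at 2. There a log2 difference of 1 was thus missed in most genes. These counts had the same spread for every gene and no library effect beyond depth, so the rates may not hold for the enzymes.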

How the data were processed

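The deposited values are raw UMI counts per gene and barcode, from Cell Ranger 6.0.0 per the file headers; the authors applied no normalization. The submitters' processing notes name GRCh38, a human build, while the gene identifiers are those of mouse; no source used here gives the mouse build or says whether introns or strand were used in counting. The labels name a 3' kit.

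Nuclei with at least 500 genes and at most 5% mitochondrial UMIs were kept, doublets were removed per library with Scrublet (expected rate 0.06; 2.99 to 11.3% called) and the rest were clustered with scanpy 1.11.5 (2000 variable genes, 30 components, 15 neighbours, Leiden resolution 1; 20 clusters). Clusters were called hepatocyte-like or another class from marker lists, with a scoring rule set after the data were seen; counting error and rebuilt names may shift levels. Counts were summed per library, since nuclei are not replicates, and tested with edgeR 4.0.16 in R 4.3.3 (TMM, filterByExpr, robust glmQLFit and glmQLFTest) over all genes, taking Brca1-KO minus Brca1-WT with no block, or portal minus central bin with library as a block, score markers left out. The threshold was a Benjamini-Hochberg adjusted p of 0.05. For genotype, p-values rest on the spread between libraries of the same label. For zonation, they rest on how alike the difference between bins was over these 4 libraries. Both tests borrow estimates of spread across genes. On simulated counts the genotype test found 82 of 100 genes changed by 1 on the log2 scale. It found 100 of 100 changed by 2, and the zonation test found 100 of 100 at both sizes. The simulated counts had the same set spread for every gene and no library effect beyond depth. Whether they spread between libraries as widely as the enzymes was not tested. Among the enzymes the SE of the genotype log2 fold change ran from 0.24 (Haao) to 0.83 (Sds). The rate of 82 of 100 thus does not show that a change of 1 would be found in these enzymes. The zonation and interaction rates come from the same kind of simulated counts and carry the same limit.

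The 10 enzymes and all lists were chosen with earlier results of these data known. All 10 are named in each comparison; from the wider list, the 6 of smallest p by genotype and up to 4 each way of largest zonation; for likeness, the gene of highest correlation. The feeding-raised list is given without 1 of its genes, which is not reported here. Alternatives included DESeq2 1.42.0, other scalings, filters, markers and cuts, doublets kept, nuclei thinned to 1000 UMIs and each library left out. The sequences are from RefSeq (GRCm38.p6), a build that may not be that of the counts.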

Additional observations from a re-analysis of the deposited data

How the results depend on the processing

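No setting made any of the 10 enzymes, or of the 60 wider genes, pass by genotype, or any of the 10 by the interaction. The number of all genes passing by genotype, 0 with edgeR and TMM, was 23 with DESeq2, 2 without the low-count filter and 0 to 30 with 1 library left out. The 30 came without KO1, so that KO2, alone in its group, is assumed to vary like the Brca1-WT libraries. The zonation count fell from 2985 to 1126 genes in nuclei thinned to 1000 UMIs, where fewer genes were tested (7147), and was 2112 to 2748 with 1 library left out; 7 to 8 enzymes then passed. Sds, Hal, Uroc1, Gls2, Gldc, Oat and Hpd passed for zonation in every setting run, and the cause of the other changes was not tested.

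Values near 0 changed sign. By genotype these were -0.25 for Sds with the replicate block, 0.050 for Hal in bins 2, 3 and 4, and -0.56 for Sds, 0.090 for Hal, -0.068 for Uroc1 and 0.067 for Gls2 in the central bin alone. For zonation Haao became -0.017 in thinned nuclei. For the interaction, 3 bins in place of 5 gave -0.083 for Uroc1 and -0.038 for Haao, and the second marker set gave -0.14 and -0.11. Thinned nuclei gave -0.16 for Sds, -0.39 for Uroc1, 0.055 for Oat and 0.27 for Gldc. Pooled cuts gave 0.93 for Gls2 and 0.91 for Gldc, and keeping doublets gave 0.085 for Gldc.

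With 1 library left out, genotype log2 fold changes ran from -1.56 to 0.83 for Sds, -0.72 to 0.60 for Hal, -0.34 to 0.59 for Uroc1, -0.94 to 0.47 for Gls2, -0.12 to 0.044 for Tdo2 and -0.50 to 0.26 for Gldc. Zonation ran from -0.070 to 0.18 for Tat and -0.0038 to 0.060 for Haao. Interactions ran from -0.64 to 0.57 for Gls2, -0.71 to 0.45 for Gldc, -0.091 to 0.12 for Haao, -0.022 to 0.12 for Uroc1 and -0.46 to 0.20 for Tdo2. Replicate numbers were used only as names, since the labels do not say that they pair libraries. Deviations of same-numbered libraries from their group means correlated at -0.079 and those of crossed libraries at 0.079. With 2 libraries in each group these values mirror each other, so they cannot decide on pairing. With the replicate block 0 enzymes and 0 genes passed. The alternative without the Gpc3-led cluster was chosen after seeing the data. Depth limits Oat most, with 652 to 1810 UMIs per library.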
